A study of Rattus norvegicus with 6 samples.

Results

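The fibroblast growth factor (FGF) ligands Fgf1, Fgf2, Fgf7, Fgf10 and Fgf18 and the receptors Fgfr1, Fgfr2, Fgfr3 and Fgfr4 were followed in mammary tumors of older and younger rats. The 9 genes were picked by symbol, and all 9 were found among 26195 named rows of a table of 30562 rows. Bulk RNA-seq was available for 6 tumors of F344 rats, an inbred strain often used for aging studies, with 3 tumors from older rats (102, 107 and 116) and 3 from younger rats (157, 158 and 167). Older rats came from the National Institute on Aging colonies at 19 to 21 months of age and were dosed at 21 to 23 months, and younger rats came from Envigo at 6 to 8 weeks and were dosed at 4 months. Every rat, in both groups, carried a 50 mg pellet of MPA (medroxyprogesterone acetate, a progestin) that releases over 90 days and received DMBA, a carcinogen, once by gavage at 65 mg per kg. Age cannot be told apart from the supplier of the rats. The younger group holds all the tumors those rats developed, while the older tumors were those with enough tissue. Each tumor was 1 library, and 3 against 3 libraries set the precision.

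FGFs are secreted or cell-retained signals that bind receptor tyrosine kinases together with heparan sulfate on the cell surface. In the mammary gland Fgf7 and Fgf10 are made by stroma and bind the epithelial splice form of Fgfr2, which is required for the mammary bud and for duct growth. The receptors relay through the adaptor Frs2 to the RAS and ERK pathway, which switches on feedback inhibitors such as Spry1 and Dusp6 and the transcription factors Etv4 and Etv5. Counts per gene do not separate the epithelial and mesenchymal splice forms of a receptor.

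Libraries held 3508571 to 6525830 counts, and 3 counts, taken as the floor, correspond to 0.53 to 1.03 CPM (counts scaled to a common library size, with TMM, edgeR's factor for library composition). Luminal epithelial markers, the defining genes of the glandular tissue, were present in every tumor, with a summed level of 1642 to 2360 CPM over the 11 of 12 listed genes in the table. The quasi-likelihood test of edgeR, older against younger, called 0 of 13139 genes (0%) at an adjusted p under 0.05 and 1128 (8.59%) at an unadjusted p under 0.05, while limma-voom called 0 and DESeq2 343. Each tumor carries its own number in the labels.

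Of the 9 members, Fgf1, Fgf2, Fgfr1, Fgfr2 and Fgfr3 had enough counts to be tested. Fgfr2 was the member that separated the age groups. Its level was 4.12-fold lower in older tumors, while Fgfr1 stayed within the spread between tumors and Fgf1, the ligand with the most counts, varied more within the older group than between the groups. None of the 9 passed an adjusted p of 0.05 in edgeR (0 of 5 tested), and 1 of the 5, Fgfr2, had an unadjusted p under 0.05. Among all genes tested, 3.29% were lower in older tumors at that unadjusted threshold.

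**Figure D1:**
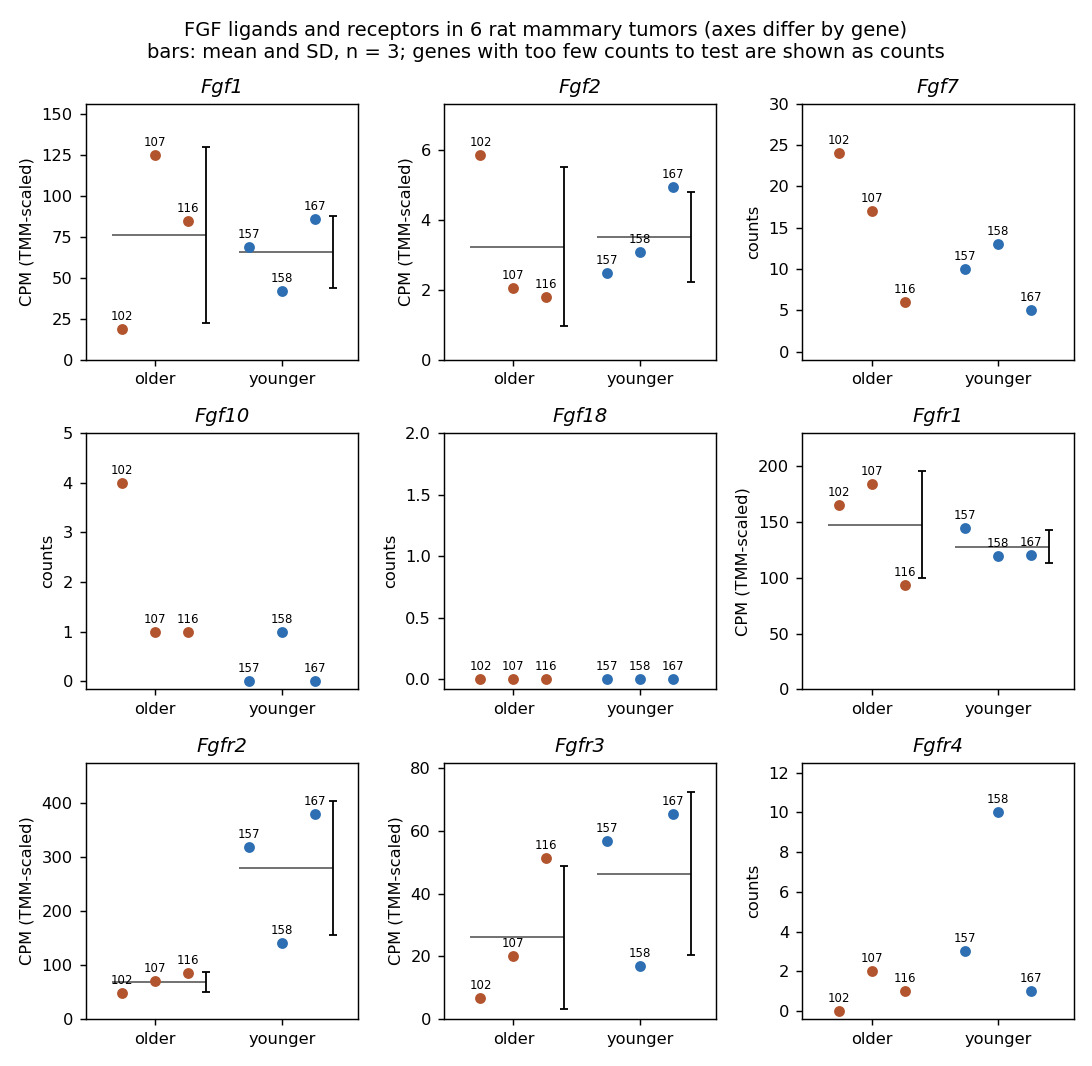
Levels of the 9 FGF genes by tumor, as TMM-scaled CPM for the 5 tested genes (points: tumors, lines and bars: mean and SD, n = 3) and as counts for the 4 that had too few counts. For Fgfr2 the older tumors sit between 47.9 and 85.1 CPM, below the younger tumors at 140 CPM and above, while for the other tested genes the groups overlap.

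Among the receptors, Fgfr2, the receptor for the stromal ligands Fgf7 and Fgf10, was at 47.9 CPM in older tumor 102, 69.8 in tumor 107 and 85.1 in tumor 116. In the younger group it was at 317 CPM in tumor 157, 140 in tumor 158 and 379 in tumor 167. All older tumors lay below all younger ones, and the younger group was the more variable, with tumor 158 nearest to the older tumors. The means were 67.6 ± 18.7 CPM (SD, n = 3) and 279 ± 124 CPM (SD, n = 3). The log2 fold change was -2.04 with a standard error (SE) of 0.42. The unadjusted p was 0.00143 and the adjusted p 0.265 (edgeR). The order of the groups was shared with many other genes, as 5.58% of all genes tested had every older tumor below every younger one. A log2 fold change this low or lower was seen in 0.929% of them. DESeq2, the tool the study names, gave Fgfr2 an adjusted p of 0.000978, with 2.28% of its tested genes called and 0.746% called lower in older tumors, so the call depends on the test. In bulk tumors, fewer cells that carry the receptor and less receptor RNA per cell cannot be told apart.

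Fgfr1, the receptor with broad expression in stroma and epithelium, was at 166, 184 and 93.1 CPM in older tumors 102, 107 and 116 and at 145, 119 and 120 CPM in younger tumors 157, 158 and 167. The younger values lay inside the older range. The log2 fold change was 0.20 with a standard error of 0.30 (adjusted p = 0.927, edgeR). It was 0.00915 without tumor 107 and 0.44 without tumor 116.

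Fgfr3, a receptor best known from cartilage and bladder epithelium, was at 6.54, 20.2 and 51.3 CPM in older tumors 102, 107 and 116 and at 56.9, 16.8 and 65.4 CPM in younger tumors 157, 158 and 167. Tumors 116, 157 and 167 were high and tumors 102, 107 and 158 low, so that both groups held both kinds. The log2 fold change was -0.82 with a standard error of 0.74 (adjusted p = 0.869, edgeR). Its size rested on single tumors, as it was -0.37 without tumor 102 and -1.78 without tumor 116.

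Fgfr4, a receptor prominent in liver, had 0, 2 and 1 counts in older tumors and 3, 10 and 1 in younger tumors. Tumor 158 was the only tumor above the floor of 3 counts, and no level was read from the others.

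Promoter sequences are shown for Fgfr2 and Fgfr3, receptors that differed in how they followed the age groups, and for Fgf3, a ligand outside the 9 genes that was detected in 2 tumors (its counts are given further on). The RefSeq table of assembly GRCr8, a later build than the one the reads were aligned to, holds 8 of the 9 members. Each run is the 250 bases before the gene's start, on the gene's strand, from chr1:194280915-194281164 (minus strand) for Fgfr2, chr14:81227210-81227459 (minus strand) for Fgfr3 and chr1:209430207-209430456 (plus strand) for Fgf3. Capitals mark the GC box GGGCGG and the CCAAT box CCAAT, on either strand (CCGCCC and ATTGG on the opposite strand), and the motifs do not overlap each other here.
Fgfr2: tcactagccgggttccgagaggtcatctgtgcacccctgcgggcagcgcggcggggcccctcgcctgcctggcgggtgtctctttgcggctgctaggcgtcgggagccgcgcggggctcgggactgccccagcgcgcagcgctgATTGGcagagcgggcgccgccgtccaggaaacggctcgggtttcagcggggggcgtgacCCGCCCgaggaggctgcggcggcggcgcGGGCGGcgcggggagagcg
Fgfr3: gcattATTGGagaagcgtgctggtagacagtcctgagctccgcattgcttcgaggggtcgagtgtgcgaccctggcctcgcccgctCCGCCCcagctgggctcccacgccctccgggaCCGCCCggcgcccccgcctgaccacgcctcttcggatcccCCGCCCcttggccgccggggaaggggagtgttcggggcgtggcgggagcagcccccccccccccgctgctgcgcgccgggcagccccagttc
Fgf3: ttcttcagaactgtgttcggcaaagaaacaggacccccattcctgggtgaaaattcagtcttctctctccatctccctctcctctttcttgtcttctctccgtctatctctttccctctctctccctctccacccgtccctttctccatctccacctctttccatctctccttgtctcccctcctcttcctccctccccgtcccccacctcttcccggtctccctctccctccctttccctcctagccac

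Both receptor promoters were rich in G and C, at 76.8% for Fgfr2 and 74.4% for Fgfr3, against 55.2% for Fgf3 and a median of 51.2% over 33469 promoters. Fgfr2 held 37 CpG pairs and Fgfr3 26, against 5 in Fgf3 and a median of 5. The GC box was found 2 times in Fgfr2, 3 times in Fgfr3 and not in the Fgf3 window, and 30.47% of all promoters hold it at least 1 time. The CCAAT box was found 1 time in each receptor promoter and in 34.02% of all promoters, and the TATA box TATAAA was in none of the 3 windows and in 12.93% of all promoters. These matches describe the windows and were not linked to the counts.

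Counts of 2 receptors in the same tumor share its library size, so their ratio does not depend on the scaling, and gene length cancels when the ratio is compared between tumors. The Fgfr2 to Fgfr1 ratio was 0.289 in tumor 102 (95% counting interval, Clopper-Pearson, 0.238 to 0.35), 0.38 in tumor 107 (0.332 to 0.434) and 0.914 in tumor 116 (0.799 to 1.04). It was 2.19 in tumor 157 (2.02 to 2.39), 1.17 in tumor 158 (1.06 to 1.31) and 3.16 in tumor 167 (2.85 to 3.5). All older tumors lay below all younger ones, and tumors 116 and 158 were nearest to each other across the groups. The mean log2 ratio was -1.11 ± 0.87 (SD, n = 3) in older and 1.01 ± 0.72 (SD, n = 3) in younger tumors, a difference of -2.11 given without a test. These intervals cover counting error only.

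The Fgfr3 to Fgfr1 ratio ran from 0.0395 (tumor 102) to 0.551 (tumor 116) in older tumors and from 0.141 (tumor 158) to 0.545 (tumor 167) in younger tumors, so the groups overlapped. Tumors 116 and 167, from different age groups, had nearly the same ratio. The Fgfr2 to Fgfr3 ratio also overlapped, at 7.32, 3.45 and 1.66 in older tumors 102, 107 and 116 and 5.57, 8.32 and 5.79 in younger tumors 157, 158 and 167. Older tumor 102 lay among the younger tumors on this ratio, and the geometric mean was 1.86-fold higher in younger tumors.

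Summed levels of some cell type markers separated the age groups too. The luminal epithelial sum was 1642 to 1842 CPM in older and 2235 to 2360 CPM in younger tumors without overlap, and all 11 tested genes had a negative log2 fold change, although 0 had an unadjusted p under 0.05. The myoepithelial sum (9 of 10 genes in the table) was 808 to 3754 CPM in older and 2772 to 3618 CPM in younger tumors. The groups overlapped, all 9 genes had a negative log2 fold change, and 0 had an unadjusted p under 0.05 (edgeR). Of all genes tested, 6616 of 13139 had a negative log2 fold change. Macrophage markers (10 of 10 genes) summed to 263 to 484 CPM in older and 124 to 193 CPM in younger tumors, without overlap. T cell markers (7 of 9 genes, 4 of them tested) summed to 25.1 to 157 CPM and 12.5 to 21.0 CPM, also without overlap. The 157 CPM was that of tumor 107, against 25.1 and 34.2 CPM in tumors 102 and 116. The fibroblast, adipocyte, endothelial, muscle and milk protein sums overlapped between the groups. None of the listed markers found in the table was at 0 in all tumors. Per count of the 11 luminal markers, Fgfr2 was at 0.026, 0.0425 and 0.0467 in older tumors 102, 107 and 116 and at 0.134, 0.0617 and 0.170 in younger tumors 157, 158 and 167. The groups did not overlap on this ratio either, with a 3.01-fold higher geometric mean in younger tumors. Per count of myoepithelial markers the groups overlapped, at 0.0186 to 0.075 in older and 0.0493 to 0.137 in younger tumors, with a 1.93-fold higher geometric mean in younger tumors. The part of macrophages and T cells in the Fgfr2 difference was not tested.

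**Figure D2:**
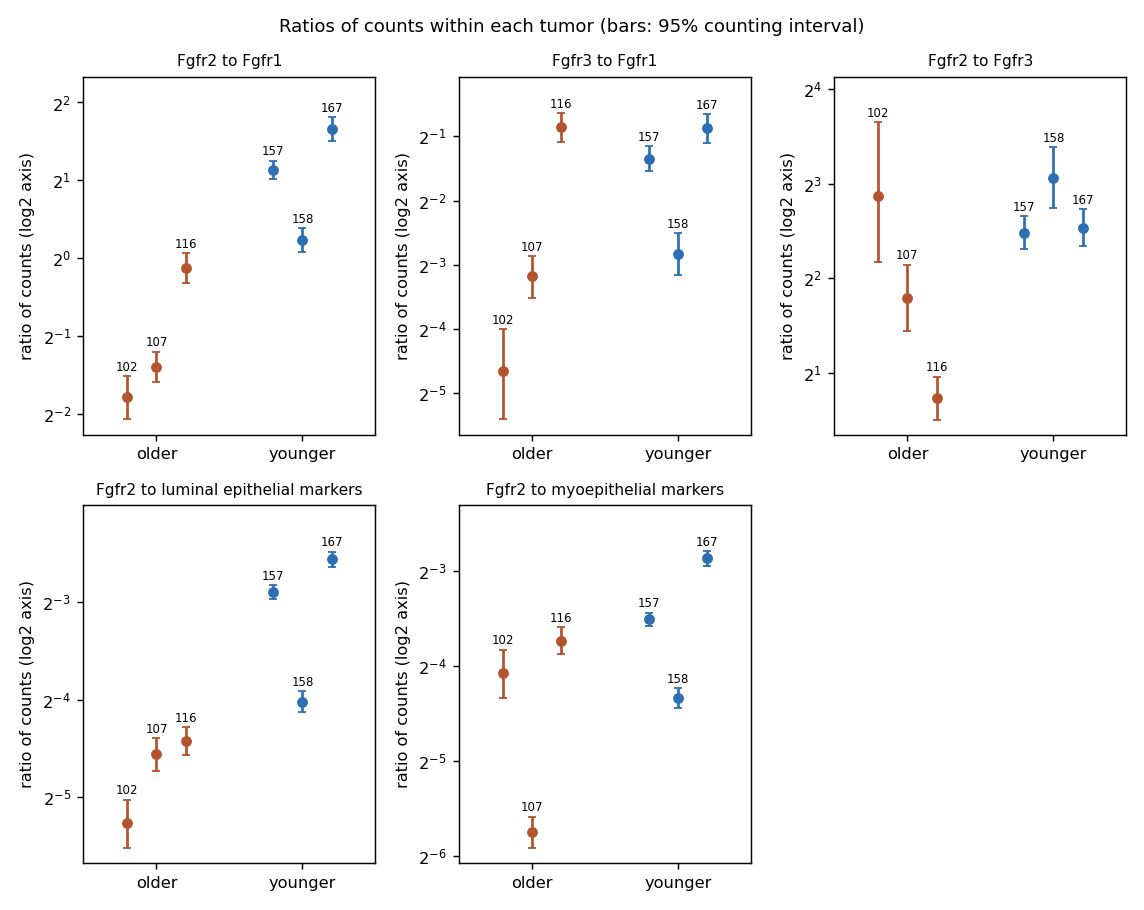
Ratios of counts within each tumor on a log2 axis (points: tumors, bars: 95% counting intervals), for 3 pairs of receptors and for Fgfr2 to the sums of luminal epithelial and of myoepithelial markers. The ratios of Fgfr2 to Fgfr1 and to luminal markers separate older from younger tumors, while those of Fgfr3 to Fgfr1, Fgfr2 to Fgfr3 and Fgfr2 to myoepithelial markers overlap.

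Among the ligands, Fgf1, which lacks a classical secretion signal and can bind every FGF receptor, was at 18.9, 125 and 84.5 CPM in older tumors 102, 107 and 116 and at 68.9, 42.2 and 86.2 CPM in younger tumors 157, 158 and 167. Tumor 102 was the lowest and tumor 107 the highest of the 6, both from older rats. The means were 76.2 ± 53.6 CPM (SD, n = 3) and 65.8 ± 22.2 CPM (SD, n = 3), and the log2 fold change was 0.22 with a standard error of 0.60 (adjusted p = 0.968, edgeR). The sign turned with single tumors, to -0.33 without tumor 107 and -0.01 without tumor 158, and it was -0.03 with limma-voom. The value was 0.67 without tumor 102.

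Fgf2, a growth factor held in the matrix and made by many stromal cells, had 17, 9 and 9 counts in older tumors and 14, 17 and 20 in younger tumors. These were 5.85, 2.05 and 1.80 CPM against 2.48, 3.08 and 4.94 CPM, with older tumor 102 the highest and the other older tumors the lowest. The log2 fold change was -0.14 with a standard error of 0.61 (adjusted p = 0.979, edgeR), and it turned positive in 3 of the 6 fits that left out a tumor (107, 116 or 167). At 9 to 20 counts the depth allows no finer comparison.

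Fgf7, keratinocyte growth factor, had 24, 17 and 6 counts in older tumors 102, 107 and 116 and 10, 13 and 5 in younger tumors 157, 158 and 167. In CPM these were 8.26, 3.86 and 1.2 against 1.77, 2.35 and 1.23. Tumors 102 and 107 were the highest and tumor 116 the lowest of the 6, so the groups overlapped. It did not pass the filter on low counts. In a fit of all genes with at least 1 count its log2 fold change was 1.22 with a standard error of 0.76 (adjusted p = 0.771, edgeR). Tumor 102, the tumor with the highest Fgf7 and Fgf2 CPM, also had the highest summed fibroblast markers, 1854 CPM against 208 to 1328 CPM in the other 5 tumors, and the highest adipocyte markers, 357 CPM against 42.2 to 88.6 CPM. The part of these cells in the 2 ligand values was not tested.

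Fgf10, the stromal ligand of branching epithelia, had 4, 1 and 1 counts in older tumors and 0, 1 and 0 in younger tumors, and Fgf18, a ligand best known from bone and lung, had 0 counts in all 6 tumors. By depth alone, a count of 0 allows up to 0.53 to 1.03 CPM in these libraries. Fgf10 was above the floor of 3 counts in tumor 102 only. In the fit of all genes with at least 1 count its log2 fold change was 2.62 with a standard error of 1.5 (adjusted p = 0.744, edgeR). In CPM all older tumors lay above all younger ones, but in tumors 107, 116 and 158 the level is that of a single count, and no order was read from it. A row of zeros need not mean a low level in this table, because Mapk3, which encodes the kinase ERK1 found in nearly every cell, was also listed at 0 in all 6 tumors (it was singled out after its values were seen). Fgf18 is therefore given only as listed at 0.

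Profiles across the 6 tumors are given for Fgfr2 and Fgfr3, whose log2 CPM spanned at least 2, and were compared by the root mean square difference of centred log2 CPM among genes with a mean of at least 10 CPM. The genes nearest to Fgfr2 among 10319 candidates were Scnn1a, a subunit of the epithelial sodium channel (0.26), Oas1i, of the interferon-induced oligoadenylate synthetase family (0.28), and Serpinb5, the epithelial serpin maspin (0.31), where the standard deviation of Fgfr2 itself was 1.2. Scnn1a was at 11.0 to 15.5 CPM in older and 20.1 to 63.4 CPM in younger tumors. Oas1i belongs to a gene family with near-identical copies, so its counts are uncertain. For Fgfr3 the nearest were H2ac4 (0.18), Tead2 (0.24) and Serpine2 (0.26), against 1.27. With 6 tumors and this many candidates, such likeness is a description only.

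The rest of the FGF pathway was read from 5 further lists with 91 genes, of which 88 were in the table and 71 were tested. No gene was called (0 of 71, edgeR), and 9 had an unadjusted p under 0.05, 3 lower and 6 higher in older tumors, beside 3.29% and 5.3% of all genes. DESeq2 called 2, Flrt3 (higher) and Sdc1 (lower). The median log2 fold change over the 71 genes was 0.02, and over all genes tested it was -0.00387.

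**Figure D3:**
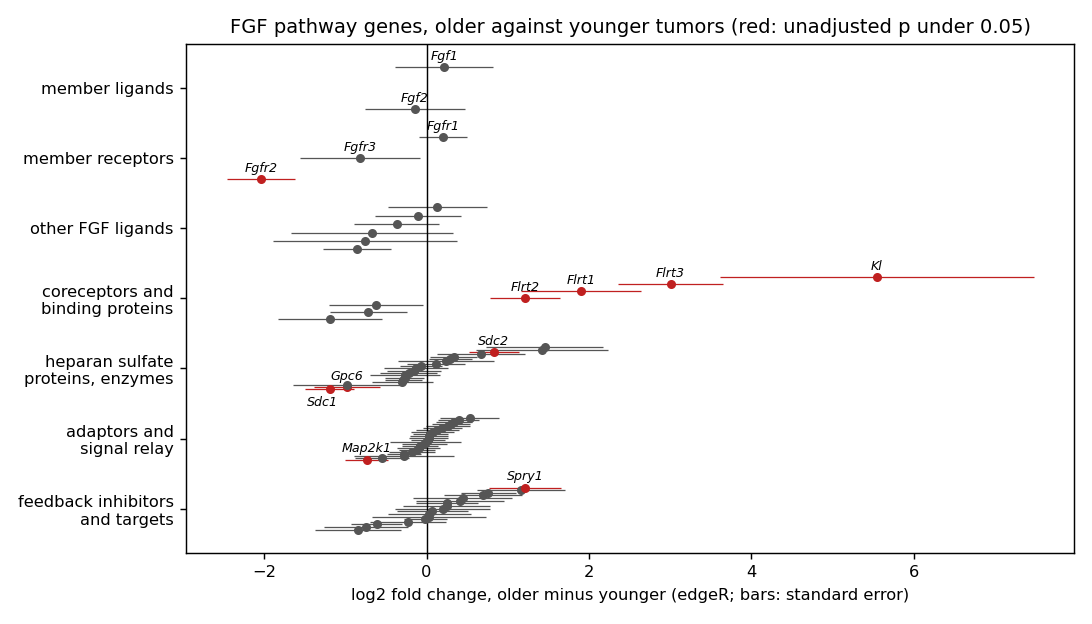
Log2 fold changes (older minus younger, edgeR) of the tested FGF genes in 7 lists, with standard errors as bars and genes with an unadjusted p under 0.05 in red. Fgfr2 at -2.04 is the lowest value shown, the 3 Flrt genes and Kl lie to the right, and the adaptors cluster near 0.

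Of 18 other FGF ligands, 17 were in the table and 6 were tested. None had an unadjusted p under 0.05, the median log2 fold change was -0.52, and 4 were listed at 0 in every tumor. Without tumor 167 the median was 0.11, so its sign rested on that tumor. Fgf11, an FGF that stays inside the cell and does not signal through receptors, was lower in all older tumors (4.13 to 10.7 CPM against 12.4 to 15.2 CPM). This order was seen in 5.58% of all genes tested. The log2 fold change was -0.86, with a standard error of 0.42 and an adjusted p of 0.657 (edgeR).

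Fgf3 was singled out after its values were seen. It encodes a secreted FGF that is silent in most adult tissue and was first found at a site where mouse mammary tumor virus inserts. It had 45 counts in older tumor 107 and 46 in older tumor 116, and 0 in older tumor 102 and in all 3 younger tumors. The 2 tumors reached 10.2 and 9.21 CPM, while 0 counts allow at most 1.03 CPM in tumor 102 and 0.53 to 0.741 CPM in the younger tumors. With counts in 2 of 6 tumors, Fgf3 did not pass the filter on low counts and was not tested. The older group was thus split, with tumor 102 at 0 like the younger tumors. Fgf23, a bone hormone chosen in the same way, had 41 counts in tumor 102 and 0 to 4 in the others.

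The coreceptor list had 7 of 10 genes tested, and 4 of them had an unadjusted p under 0.05 (edgeR), each higher in older tumors. Among all genes tested, 5.3% were higher at that threshold. The median log2 fold change of the list was 1.21, and it ran from 0.37 to 1.51 with a tumor left out. The 0.37 came from the fit without tumor 157, in which Kl was not tested, so the list had changed. Flrt2, whose value is the median of the full list, was at 1.22 in that fit. Flrt3, a membrane protein with leucine-rich repeats that binds FGF receptors, was at 18.9, 11.1 and 53.1 CPM in older and 2.30, 3.44 and 4.69 CPM in younger tumors. All older tumors lay above all younger ones, an order seen in 6.51% of all genes tested, and tumor 116 was the highest. The log2 fold change was 3.0 with a standard error of 0.65 (adjusted p = 0.271, edgeR), and 2.10 without tumor 116. Of its relatives, Flrt2 had a log2 fold change of 1.21 (SE 0.43, adjusted p = 0.463, edgeR) without overlap of the groups. Flrt1 had 1.90 (SE 0.74, adjusted p = 0.521, edgeR) and rested largely on tumor 102, since it was 0.70 without it. Kl, which encodes klotho, the coreceptor of Fgf23, had 1119 counts in tumor 107 and 4 to 15 in the other 5, and its log2 fold change of 5.55 (SE 1.93, adjusted p = 0.455, edgeR) stands on that tumor alone. With limma-voom it was 2.51, and DESeq2 gave it no adjusted p. The lowest of this list were Ncam1 at -1.19 (adjusted p = 0.713, edgeR) and Fgfrl1, the receptor without a kinase, at -0.72 (adjusted p = 0.786, edgeR), both with overlap. Both moved with single tumors. Ncam1 was at -2.17 without tumor 102 and -0.77 without tumor 158, and Fgfrl1 at -0.38 without tumor 102 and -1.28 without tumor 107.

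**Figure D4:**
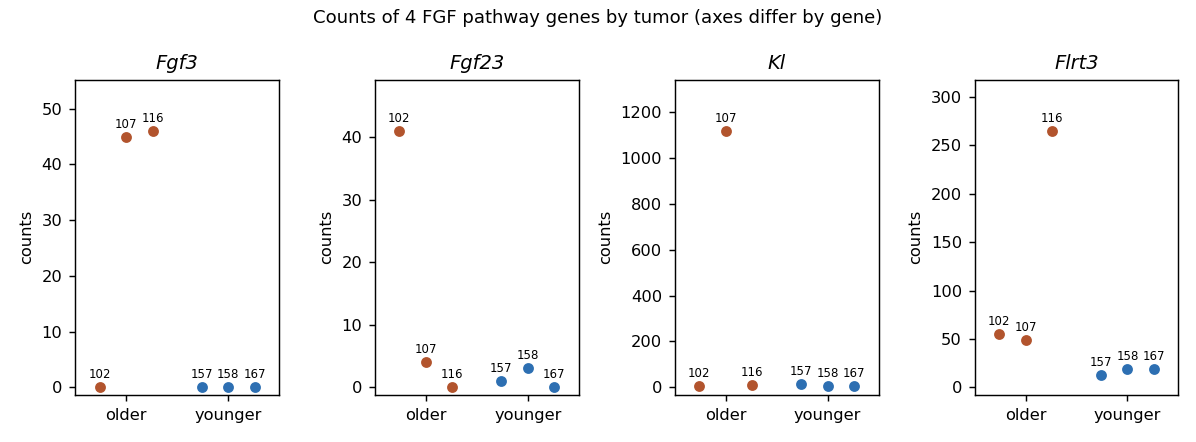
Counts of Fgf3, Fgf23, Kl and Flrt3 in each tumor (points labelled by tumor). Fgf3 appears in tumors 107 and 116 with 45 and 46 counts and nowhere else, Fgf23 and Kl each stand out in 1 older tumor, and Flrt3 is highest in tumor 116 with 265 counts.

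Heparan sulfate proteins and enzymes, which hold FGFs at the cell surface, had 19 of 20 genes tested and a median log2 fold change of -0.13, which was 0.0449 without tumor 157. Of these, 2 had an unadjusted p under 0.05 and were lower in older tumors, and 1 was higher. Over all genes tested these shares were 3.29% and 5.3%. Sdc1, the epithelial syndecan, was at 65.4, 106 and 108 CPM in older and 271, 172 and 197 CPM in younger tumors, with a log2 fold change of -1.19 (SE 0.30, adjusted p = 0.315, edgeR). The groups did not overlap, as for Fgfr2. Every older tumor lay below every younger one, an order seen in 5.58% of all genes tested. Sdc2, a syndecan of mesenchymal cells, had a log2 fold change of 0.83 (SE 0.31, adjusted p = 0.496, edgeR) with overlap. The glypican Gpc6 had -0.98 (SE 0.41, adjusted p = 0.569, edgeR) with the same order of the groups as Sdc1, and -0.50 without tumor 167. The highest values of the list belonged to Sulf1, a sulfatase that trims heparan sulfate, at 1.45 (SE 0.72, adjusted p = 0.67, edgeR) and the glypican Gpc4 at 1.42 (SE 0.82, adjusted p = 0.744, edgeR), both with overlap. Both rested on tumor 102, without which Sulf1 was at 0.39 and Gpc4 at -0.03.

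The adaptors and relay kinases had 22 of 25 genes tested and a median of 0.02, which was -0.11 without tumor 102. Map2k1, the kinase that activates ERK, was the one with an unadjusted p under 0.05, at 37.2 to 43.9 CPM in older and 53.1 to 87.9 CPM in younger tumors (log2 fold change -0.74, SE 0.26, adjusted p = 0.471, edgeR). Of all genes tested, 3.29% were lower in older tumors at that unadjusted threshold.

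Feedback inhibitors and target genes had 17 of 18 genes tested and a median of 0.20. With an unadjusted p under 0.05, 1 was higher in older tumors, beside 5.3% of all genes tested. The median was -0.26 without tumor 116, so its sign rested on that tumor. Spry1, an inhibitor of receptor signaling, was at 29.6, 97.7 and 42.1 CPM in older and 27.4, 22.3 and 23.5 CPM in younger tumors, with a log2 fold change of 1.21 (SE 0.45, adjusted p = 0.49, edgeR), and the value was 0.56 without tumor 107. Dusp4, an ERK phosphatase, followed with 1.17 (adjusted p = 0.629, edgeR), and the ETS factor Etv1 was lowest with -0.85 (adjusted p = 0.773, edgeR). Without tumor 102 these were 0.68 and -0.43. All older tumors lay above all younger ones in Spry1 and below them in Etv1. These orders were seen in 6.51% and 5.58% of all genes tested. Dusp6, Etv4 and Etv5, target genes often read for FGF signaling and named after their values were seen, overlapped between the age groups. Dusp6 was at 80.2, 147 and 252 CPM in older and 175, 99.5 and 183 CPM in younger tumors, and Etv5 was at 24.4, 77.3 and 153 CPM and 96.4, 50.8 and 75.3 CPM. For both, tumor 102 was the lowest of the 6 and tumor 116 the highest, so the older group held both ends of the range. Etv4 had the same order at its ends, with 4.82 CPM in tumor 102 and 50.3 CPM in tumor 116, and its log2 fold change was 0.03 (SE 0.70, adjusted p = 0.995, edgeR).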

How the data were processed

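Raw read counts per gene in 6 tumors were deposited by the authors without normalization. Per the labels and methods, total RNA was depleted of ribosomal RNA (1 label field reads polyA), reads were aligned with STAR to a rat build that the submitters' processing notes give as mRatBN7.2 and counted with HTSeq 0.13.5. The annotation, the strand setting and the handling of marked duplicates are not given in the sources used here. The 4367 rows without a gene name (2.87% of counts) were left out of library sizes and tests, and 0 columns of other samples were present. Groups came from the sample titles.

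The main test was that of edgeR 4.0.16 under R 4.3.3 (filterByExpr with the age group, TMM, quasi-likelihood test, no covariate, Benjamini-Hochberg adjustment over 13139 genes, threshold 0.05). Standard errors were calculated back from the F statistic, and log2 CPM used a prior count of 2. Alternatives were DESeq2 1.42.0, limma-voom (limma 3.58.1), DESeq2 size factors, library totals, other filters, leaving out the 10 most abundant genes and leaving out each tumor. Promoters came from RefSeq (GRCr8). P-values weigh the difference between the age groups against the spread between tumors.

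The members and gene lists were chosen with earlier results of these data known. Every member was named, pathway genes were named at an unadjusted p under 0.05, the 2 highest and 2 lowest of a list could also be named and only some of them were, and genes named outside this rule are marked as such. The genes most like Fgf1 across tumors are not reported here.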

Additional observations from a re-analysis of the deposited data

How the results depend on the processing

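No paired analysis was possible because no label links an older tumor to a younger one. The choice of test moved the counts most. DESeq2 called 343 genes (231 higher and 112 lower in older tumors) where edgeR called 0, 1 member (Fgfr2) where edgeR called 0, and 2 pathway genes where edgeR called 0. Each of the other settings run, limma-voom and the 6 fits without 1 tumor included, gave 0 in all 3 counts. Keeping rows without a gene name, chosen after seeing the data, also gave 0. Fgfr2 stayed negative in all 14 alternatives, with log2 fold changes from -2.36 to -1.76 when each tumor was omitted in turn and adjusted p-values from 0.000978 to 0.726. The Fgfr2 to Fgfr1 difference ran from -2.60 to -1.77 in log2 units with a tumor left out. Signs turned for several genes. With a tumor left out, Fgf1 ranged from -0.33 to 0.67, Fgf2 from -0.85 to 0.17, Dusp6 from -0.43 to 0.39, Gpc4 from -0.0333 to 1.83, Etv4 from -0.60 to 0.52 and Etv5 from -0.54 to 0.64. With limma-voom, Fgf1 was at -0.0278, Dusp6 at -0.0360, Etv4 at -0.23 and Etv5 at -0.0574. The causes of these changes were not tested. Kl was not tested without tumor 107, without tumor 157, without the 10 most abundant genes or with at least 10 counts in every tumor. Depth limits Fgf7, Fgf10 and Fgfr4, which had 0 to 24 counts, while Fgf18 is given only as listed at 0.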

Other observations

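Fgf3 was detected in older tumors 107 and 116 only, and its neighbors in the gene order of assembly GRCr8 were therefore read in the same tumors, a choice made after the Fgf3 counts were seen. Fgf4, next to Fgf3 on one side, was listed at 0 in all 6 tumors, and Fgf19 had at most 1 count. Neither gave an order of the tumors. Ano1, the calcium-activated chloride channel on the other side, was at 1220 CPM in tumor 107 and 585 CPM in tumor 116, against 311 CPM in tumor 102 and 125 to 684 CPM in younger tumors. Ccnd1, which encodes cyclin D1, was at 355 CPM in tumor 107 and 534 CPM in tumor 116, against 123 CPM in tumor 102 and 177 to 393 CPM in younger tumors. Fadd, which lies 2 genes from Fgf3, was at 36.5 to 47.0 CPM in all older tumors and 35.1 to 41.6 CPM in younger ones. Lto1, between Fgf19 and Ccnd1, was at 10.9 CPM in tumor 107 and 9.41 CPM in tumor 116, against 9.30 CPM in tumor 102 and 12.3 to 12.7 CPM in younger tumors. Tpcn2, beyond Ccnd1, was at 26.8 CPM in tumor 107 and 17.4 CPM in tumor 116, the lowest of the 6, against 22.5 to 29.3 CPM in the other 4 tumors. Beyond Fadd, Ppfia1 was at 135 CPM in tumor 107 and 107 CPM in tumor 116, against 66.2 to 126 CPM in the other 4, and Cttn was at 206 and 150 CPM, against 91.2 to 200.3 CPM. Shank2 was at 136 CPM in tumor 107 and 67.5 CPM in tumor 116, against 62.9 to 172 CPM. The order of the tumors differed among the neighbors that had counts. DNA copy number at this locus was not analysed here, and RNA levels do not measure it.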
